A study of Mus musculus with 22 samples.

Results

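The acetylation of histone H4 at lysine 5 (H4K5ac) was compared with that of histone H3 at lysine 9 (H3K9ac) in 1 kind of cell. The cells were MC3T3-E1 pre-osteoblasts, a mouse calvarial line, after 15 days of osteogenic culture and 3 h with 100 nM calcitriol, the hormonal form of vitamin D. The members were all regions on chromosomes 1 to 19 and X in the 2 lists that the labels give for these antibodies. They numbered 55070, of 360258 regions in all 22 lists of the series: 32202 of H4K5ac and 22868 of H3K9ac.

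The series used chromatin immunoprecipitation sequencing (ChIP-seq), in which an antibody pulls down cross-linked chromatin and the recovered DNA is sequenced. It covered 5 histone marks and 4 transcription factors in undifferentiated and differentiated MC3T3-E1 cells. All groups were of passages 5 to 12. Every acetylation list came from calcitriol-treated cells, while ethanol vehicle lists were at hand for VDR and RXR only. The differentiated group received ascorbic acid and glycerol-2-phosphate, and its matrix was removed by homogenization and a sucrose spin, a step the undifferentiated group did not have. State and preparation therefore cannot be told apart. The sample labels name H4K5ac, whereas the protocol text lists H3K5Ac in that position; the sample labels are followed here. Each mark had 1 deposited list, which gives no measure of how cultures vary and allows no test of a difference. The lists hold no read counts, depth is unknown, and intervals below are exact Clopper-Pearson 95% intervals that cover the counting of sites or genes only.

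Histone acetyltransferases place acetyl groups on lysines of the histone tails, which weakens the hold of the tail on DNA and offers a docking surface to bromodomain proteins. H3K9ac is known as a mark of active promoters and strong enhancers and is placed mainly by the GCN5 and PCAF enzymes. H4K5ac is placed by CBP, p300 and the TIP60 family, also appears on newly made histone H4, and is known from broader domains around active genes and enhancers. In osteoblasts, RUNX2 is the master factor of the lineage, C/EBPβ acts beside it at many bone genes, and the vitamin D receptor (VDR) binds DNA with the retinoid X receptor (RXR) when calcitriol is present.

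Every base was assigned to 1 of 4 kinds: covered by both marks, by H4K5ac alone, by H3K9ac alone, or by neither. Coverage by both lists does not show that both marks sat on the same nucleosome or in the same cell. The bone phosphoprotein cluster on chromosome 5 (mm9, 104621632 to 104880069, which includes 10 kb to either side) shows the kinds side by side, and was picked as an example after its values were seen. It holds Dmp1, Ibsp and Mepe, which encode mineral-binding matrix proteins, and Spp1, which encodes osteopontin and is a classical calcitriol target. H4K5ac lay over 211 kb of the 258 kb (81.8%) in 9 regions, and H3K9ac over 66.8 kb (25.8%) in 11 regions. All 4 gene starts were inside H4K5ac, and the Spp1 start was the only one of them also inside H3K9ac. The H4K5ac region over Spp1 was 78.9 kb wide and the H3K9ac region inside it 16.9 kb. The Ibsp start was 27.4 kb from the nearest H3K9ac region, the Dmp1 start 15.8 kb and the Mepe start 1.22 kb. All 4 VDR sites, 14 of the 16 RXR sites, 16 of the 19 C/EBPβ sites and all 10 RUNX2 sites of the cluster lay where both marks did. None lay in the parts of the cluster that carried neither mark. In undifferentiated cells the cluster carried 197 kb of H4K5ac and 32.8 kb of H3K9ac, the latter in 3 regions.

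**Figure D1:**
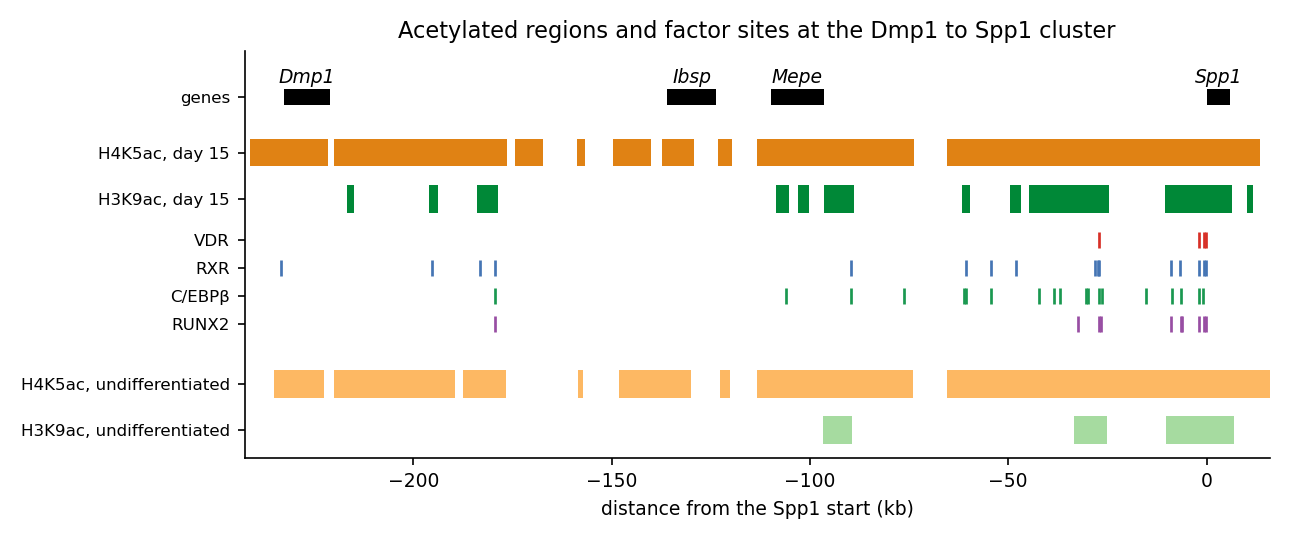
Acetylated regions (bars) and calcitriol factor sites (ticks) across the chromosome 5 bone phosphoprotein cluster, by distance from the Spp1 start in kb, with day 15 regions above and undifferentiated regions below; regions are drawn to the edge of the window. H4K5ac runs over all 4 gene starts in broad blocks, while H3K9ac forms shorter blocks, of which 1 covers a gene start, that of Spp1.

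The sites below were chosen as those with an exact match to the factor's own element nearest to a start of 60 vitamin D, osteoblast and matrix genes, 1 for each kind, to show that sites with the same element occur under different acetylation. Each is a whole deposited site on the plus strand of mm9, the element is in capitals, and none overlaps an annotated exon. The 3 VDR sites hold a DR3 element, the direct repeat to which VDR and RXR bind together. The first lies 754 bp upstream of Spp1 (chr5:104863283-104863483) in both marks. The second is intergenic, 59.7 kb upstream of S1pr3 (chr13:51444216-51444416), in a 49067 bp H4K5ac region without H3K9ac. The nearest of the 60 genes by start, Omd, was 1766181 bp away. The third is in an intron of Trpm3 (chr19:22716632-22716832) and carried neither mark. The nearest of the 60 genes was Lrp5, and the site lay at -19030168 bp from its start. No VDR site in H3K9ac alone held an exact DR3.
VDR, both marks, Spp1: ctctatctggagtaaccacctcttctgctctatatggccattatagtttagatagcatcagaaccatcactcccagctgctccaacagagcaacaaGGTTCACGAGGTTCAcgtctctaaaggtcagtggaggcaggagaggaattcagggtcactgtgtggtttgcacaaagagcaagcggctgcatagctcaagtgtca
VDR, H4K5ac alone, near S1pr3: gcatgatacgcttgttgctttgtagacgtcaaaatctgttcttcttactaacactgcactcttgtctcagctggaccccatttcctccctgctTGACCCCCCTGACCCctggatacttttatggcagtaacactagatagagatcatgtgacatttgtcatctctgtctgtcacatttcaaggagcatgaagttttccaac
VDR, neither mark, Trpm3: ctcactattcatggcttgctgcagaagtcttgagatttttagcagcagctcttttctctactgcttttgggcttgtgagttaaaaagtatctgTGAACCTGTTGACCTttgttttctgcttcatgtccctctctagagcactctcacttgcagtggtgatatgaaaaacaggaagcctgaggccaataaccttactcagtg

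The 4 RUNX2 sites hold the RUNX element (TGTGGT, or the same letters with C in the third place, followed by T or C, on either strand). In both marks the site is 116 bp upstream of Spp1 (chr5:104863921-104864121); 2 nearer sites, at Atf4 and Runx2, fell wholly in exons and are not printed. In H4K5ac alone it is 106 bp upstream of Mmp13, the collagenase of mineralizing cartilage and bone (chr9:7272308-7272508), in a region of 10947 bp. In H3K9ac alone it is 9.64 kb upstream of Tom1l1 (chr11:90559219-90559419), in a region of 1263 bp. With neither mark it is 18.9 kb downstream of the Twist1 start (chr12:34661385-34661585) and holds 2 elements.
RUNX2, both marks, Spp1: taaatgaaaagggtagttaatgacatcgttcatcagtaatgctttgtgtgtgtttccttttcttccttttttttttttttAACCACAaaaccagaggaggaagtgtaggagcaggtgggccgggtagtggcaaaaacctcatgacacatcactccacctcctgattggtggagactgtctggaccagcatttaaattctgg
RUNX2, H4K5ac alone, Mmp13: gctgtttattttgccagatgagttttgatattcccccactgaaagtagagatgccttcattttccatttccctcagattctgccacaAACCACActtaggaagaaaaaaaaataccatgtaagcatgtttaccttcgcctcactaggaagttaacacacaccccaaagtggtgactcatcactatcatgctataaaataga
RUNX2, H3K9ac alone, near Tom1l1: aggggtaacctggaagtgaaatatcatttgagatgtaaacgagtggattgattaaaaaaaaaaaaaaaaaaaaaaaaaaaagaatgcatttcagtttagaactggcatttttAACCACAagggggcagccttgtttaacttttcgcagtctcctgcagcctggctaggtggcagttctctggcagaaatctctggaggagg
RUNX2, neither mark, near Twist1: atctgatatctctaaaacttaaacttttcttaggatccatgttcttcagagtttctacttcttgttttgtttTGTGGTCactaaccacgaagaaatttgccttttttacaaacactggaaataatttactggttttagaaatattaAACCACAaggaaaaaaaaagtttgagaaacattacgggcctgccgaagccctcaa

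H3K9ac lay almost wholly inside H4K5ac, while most H4K5ac had no H3K9ac. Both marks covered 85.3 Mb, H4K5ac alone 198 Mb and H3K9ac alone 3.44 Mb. H4K5ac was thus found over 96.1% of the H3K9ac length, and H3K9ac over 30.1% of the H4K5ac length. The H4K5ac list was 3.19 times as long as the H3K9ac list, 283 against 88.7 Mb. Without the lowest 25% of regions of each list by score, H4K5ac covered 94.9% of the H3K9ac length. A much shorter H4K5ac list covers less by construction, so the equal-length values below cannot show what the nesting rested on. With the H4K5ac list reduced to the length of the H3K9ac list, H4K5ac covered 34.9% of the H3K9ac length when the 2452 regions of highest score were kept. It covered 53.4% when the 10993 regions of highest score per bp were kept.

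The kinds lay in different places. H3K9ac accompanied 82.3% of the H4K5ac length within 1 kb of protein-coding gene starts, 26.3% in the rest of gene bodies and 21.6% in distal sequence outside genes. The shared length was spread over gene starts (28.5%), gene bodies (40.4%) and distal sequence (31.1%). Gene starts make up 3.10% of the genome, so the share at starts was 9.18 times that of the genome. H4K5ac alone had 2.64% of its length at starts, 48.7% in gene bodies and 48.6% in distal sequence. The genome has 3.10%, 36.5% and 60.4% there, so H4K5ac alone was near it at starts and above it in gene bodies. H3K9ac alone resembled the shared length in its share at starts, 28.2%, but had 52.8% in gene bodies and 19.1% in distal sequence. With H4K5ac lists of equal length, the start share of the shared length was 12.2% by score and 34.5% by score per bp. That of H3K9ac alone was 37.2% and 21.6%, so its resemblance to the shared length at starts did not hold at equal length.

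**Figure D2:**
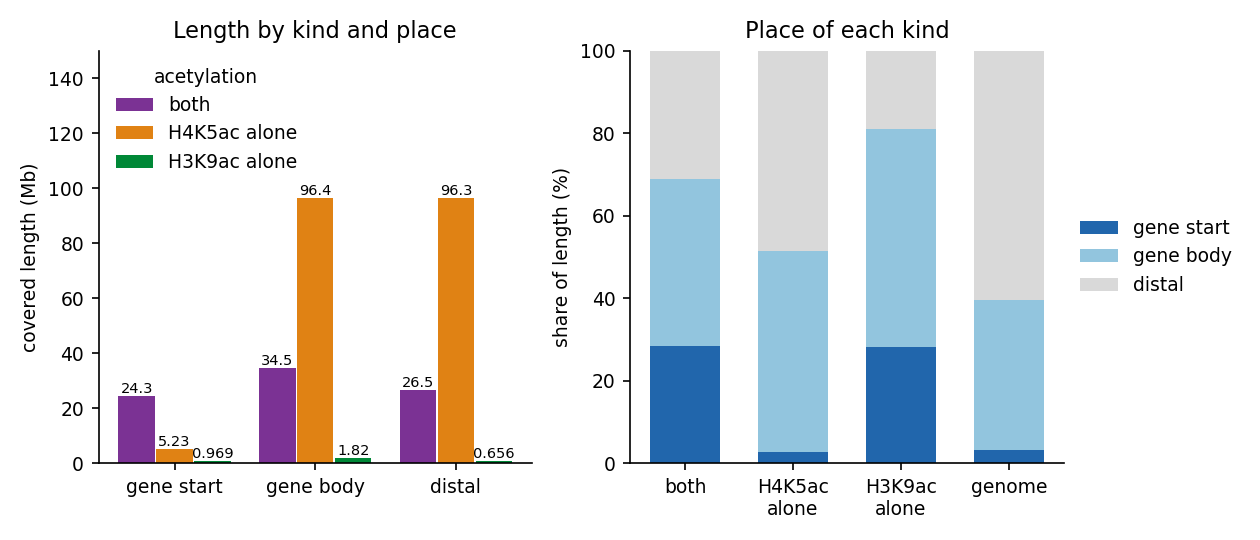
Left, length in Mb held by both marks, by H4K5ac alone and by H3K9ac alone at gene starts, in gene bodies and in distal sequence. Right, the share in percent of each kind and of the genome that lies in each place; both marks together outweigh H4K5ac alone at gene starts (24.3 against 5.23 Mb) and not in gene bodies or distal sequence.

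Seen region by region, 18399 of the 32202 H4K5ac regions (57.1%) met H3K9ac, and 22253 of the 22868 H3K9ac regions (97.3%) met H4K5ac, 17400 of them lying wholly inside. H4K5ac regions that met H3K9ac were wider, with a median of 5672 against 3780 bp, and 58.0% of them touched a gene start against 7.69% of the others. A single H4K5ac region held up to 16 H3K9ac regions, and 2432 held 2 or more. Of the 198 Mb of H4K5ac alone, 119 Mb (59.9%) were the parts of such mixed regions beyond their H3K9ac, and 79.4 Mb were regions with no H3K9ac at all. Among H4K5ac regions that did not touch a gene start, the share that met H3K9ac went from 13.8% in the lowest 25% by score to 80.4% in the highest 25%. The score is the authors' value for each region and goes with its width (Spearman's rho across regions 0.843 for H4K5ac and 0.782 for H3K9ac, given as a description). The 615 H3K9ac regions without H4K5ac were short, with a median of 1475 bp against 3064 bp, and had a median score of 45.8 against 331.

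The other marks separated the kinds as well. H3K4me3, the methyl mark of active promoters, lay over 25.6% of the shared length and over 0.0307% of H4K5ac alone. H3K4me1, which marks enhancers and the flanks of promoters, lay over 98.4% and 79.9%. H3K36me3, laid down along transcribed genes, differed little between them in gene bodies, at 56.0% and 50.9%. In distal sequence, 22.4% of H4K5ac alone had none of these 3 marks, against 0.671% of the shared length. The ratio of observed to expected CpG was 0.371 in the shared length, 0.384 in H3K9ac alone and 0.195 in H4K5ac alone, beside 0.181 where neither mark lay. H4K5ac alone was thus close to unmarked sequence in its CpG content. These ratios pool places, in which the kinds differ. At gene starts the ratio was 0.601 in the shared length, 0.257 in H4K5ac alone and 0.291 in neither. The kinds were closer in gene bodies (0.241, 0.202 and 0.194) and in distal sequence (0.253, 0.184 and 0.168). Across the 20 chromosomes, the share of H4K5ac with H3K9ac ranged from 25.2% on chromosome 16 to 41.1% on X, with a median of 30.3%.

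The longest unbroken stretches differed in kind and content. The longest shared stretch, 75.1 kb at Sfi1, Drg1 and Eif4enif1 on chromosome 11, had 98.0% of its length in H3K4me3. H3K36me3 lay over 96.3% of it and H3K4me1 over 100.0%, and in undifferentiated cells H4K5ac covered 100.0% and H3K9ac 99.7%. It also holds the pseudogenes Fau-ps2 and Pisd-ps1. Values there are uncertain, and why every mark covers it was not tested. The second, 60.8 kb on chromosome 19, held the nuclear long non-coding RNA genes Malat1 and Neat1 with 12 C/EBPβ and 11 RUNX2 sites. The third, 52.2 kb on chromosome 6, held Mir29a and Mir29b-1, microRNA genes known to act on collagen and matrix transcripts. Grb10, which encodes an adaptor that dampens insulin signalling, carried a shared stretch of 45.9 kb, and Vgll4 with Atg7 one of 44.2 kb. The longest stretches of H4K5ac alone were longer, and 3 of the first 5 lay outside protein-coding genes. The first was 178 kb wide, 199 kb from Lyplal1 on chromosome 1, with 8 C/EBPβ, 3 RXR and 1 RUNX2 site. Others lay 36.9 kb from Gm17333 (159 kb), over Lnx1 (117 kb), 38.3 kb from Tab2 (111 kb) and over Apbb2 (107 kb). Only 4.34% of the stretch near Lyplal1 was H4K5ac in undifferentiated cells, against 86.3% of the one near Tab2. H3K9ac alone reached at most 11.4 kb, and after the longest came stretches over Zic2 (10.8 kb) and Pcdh19 (9.18 kb), a neural transcription factor and a neural protocadherin. Prpf19 (7.02 kb) and Bcorl1 (5.91 kb) followed. The longest lay on chromosome 9 (mm9, 3021718 to 3033097) over the predicted genes Gm10716, Gm10717, Gm10718 and Gm10106, with H3K4me3 and H3K36me3 over 100.0% of it and H3K4me1 over none; values at these predicted gene models are uncertain.

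At gene starts the marks mostly came together. Of 22208 protein-coding genes, 11402 (51.3%, 50.7 to 52.0) had both marks within 1 kb of a start, 754 (3.40%) H4K5ac alone, 283 (1.27%) H3K9ac alone and 9769 (44.0%) neither. H3K9ac was present at 93.8% of the starts with H4K5ac. H3K4me3 lay at 83.9% of starts with both marks, at 13.1% of those with H3K9ac alone, at 2 of the 754 with H4K5ac alone and at 2 of the 9769 with neither. Starts with H4K5ac alone were also poor in CpG: 11.7% had an observed to expected ratio of at least 0.6 within 500 bp to either side, against 74.4% with both marks, 58.3% with H3K9ac alone and 14.5% with neither. Among CpG-rich starts that had H4K5ac, 99.0% also had H3K9ac, and among CpG-poor ones 81.4%. H3K36me3 covered at least 50% of the gene at 72.4% of genes with both marks, 11.3% with H4K5ac alone and 31 of the 283 with H3K9ac alone. A RUNX2 site lay within 1 kb of the start at 11.7% of genes with both marks and at 2.25% with H4K5ac alone; for C/EBPβ these shares were 15.3% and 6.10%. The shares depended on the H4K5ac list: reduced to equal length by score per bp, both marks stood at 35.5% of genes and H3K9ac alone at 17.2%, and by score at 6.51% and 46.1%.

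The starts of 10 osteoblast markers were read as well. They cannot settle the label of the cells, since both marks stood at 51.3% of all gene starts and at all 16 housekeeping genes. Both marks were at the starts of 8 of the 10 (Runx2, Sp7, Col1a1, Col1a2, Alpl, Sparc, Postn and Dlx5), Ibsp had H4K5ac alone, and Bglap, which encodes osteocalcin, had neither. The start of Bglap was 17.7 kb from H4K5ac and 20.8 kb from H3K9ac. Bglap and Bglap2 are near-identical copies, so their values are uncertain. Of 8 adipocyte markers, Cebpa had both marks and 3 (Pparg, Adipoq and Fabp4) had H4K5ac alone. Of 7 chondrocyte markers 3 had both marks (Sox9, Col2a1 and Comp), of 7 blood markers none did and Csf1r had H4K5ac alone, and of 6 muscle markers none had either mark. These short lists left out members of the longer ones that had H4K5ac alone: Lpl for adipocytes, and Des, Myh3, Tnnt3 and Mylpf for muscle.

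Genes of the osteoblast program were read against those shares of all genes. All 18 osteoblast transcription factor genes had both marks at a start, among them Runx2, Sp7 (osterix), Dlx5, Msx2 and Atf4. So did all 16 housekeeping genes. The 11 genes listed for osteoclast coupling (Tnfrsf11b, the decoy receptor osteoprotegerin, Csf1, Il6 and Ccl2 first) had both marks as well, but Tnfsf11, which encodes the osteoclast-inducing ligand RANKL, was held in the vitamin D list and had H4K5ac alone. The 8 genes listed as osteocyte markers (Pdpn, Fam20c, Cd44 and Capg first) had both marks, whereas osteocyte genes held in other lists did not: Dmp1, Mepe and Phex had H4K5ac alone, and Sost and Fgf23 neither mark. The bone matrix and mineralization list was split: of 28 genes, 20 had both marks, 5 had H4K5ac alone and 3 had neither. The 5 were Ibsp, Mepe and Dmp1 of the chromosome 5 cluster, Phex, the endopeptidase lost in X-linked hypophosphataemia, and Mmp13. Their starts had no H3K4me3, and the H3K9ac region nearest to the start was 27953 bp away at Mmp13 and 74956 bp at Phex. Mmp13 nevertheless had H3K36me3 over 93.2% of its body, whereas the other 4 had it over none. The 3 with neither mark were Bglap, Bglap2 and Enpp1, the pyrophosphate-making ectoenzyme. No gene of any list had H3K9ac alone at its start.

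Of 14 vitamin D response genes, 8 had both marks at a start: Vdr, Spp1, Lrp5, Enpp3, Cdkn1a, Rxra, Rxrb and Nfatc1. That share, 57.1%, was near the 51.3% of all genes. The shares of the Wnt list (62.5%) and the chondrocyte list (50.0%) below were near it too. These counts therefore do not set those lists apart from all genes. Tnfsf11 had H4K5ac alone, with 16.4 kb of it in the gene and 10 kb to either side and the nearest H3K9ac 21.1 kb from the start. Cyp24a1, the enzyme that breaks calcitriol down, had neither mark: its start was 9.62 kb from H4K5ac and 10.6 kb from H3K9ac, and no VDR or RXR site lay within 10 kb of the gene. Cyp27b1, Trpv6, S100g and Fgf23, known chiefly from kidney, intestine and osteocytes, also had neither. Of 16 Wnt genes 10 had both marks (Wnt5a, Wnt10b, Fzd1 and Fzd2 first), Dkk1 had H4K5ac alone and 5 had neither. Of 19 BMP and TGF-beta genes 16 had both (Bmpr1a, Bmpr2, Smad1 and Smad3 first), Bmp4 had H4K5ac alone and Bmp2 and Bmp6 had neither. In lists of other lineages H4K5ac alone was as frequent as both marks or more so, except in cartilage. Among all genes H4K5ac alone stood at 3.40% of starts. With H4K5ac lists of equal length that was 0.540% by score and 0.662% by score per bp, and the gene lists were not read there. H4K5ac alone stood at 4 of 10 adipocyte genes (Pparg, Adipoq, Fabp4 and Lpl), against 1 with both. It also stood at 4 of 10 skeletal muscle genes (Des, Myh3, Tnnt3 and Mylpf), against none. Pparg, Des, Myh3 and Mylpf counted only by the window of 1 kb, with H4K5ac 846, 158, 898 and 672 bp from the start. At Mylpf, H3K9ac was just outside the window, at 1030 bp. Of 10 chondrocyte genes 5 had both marks and 5 neither, and of 11 blood and osteoclast genes 1 had both (Ctsk), 1 H4K5ac alone (Csf1r) and 9 neither.

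**Figure D3:**
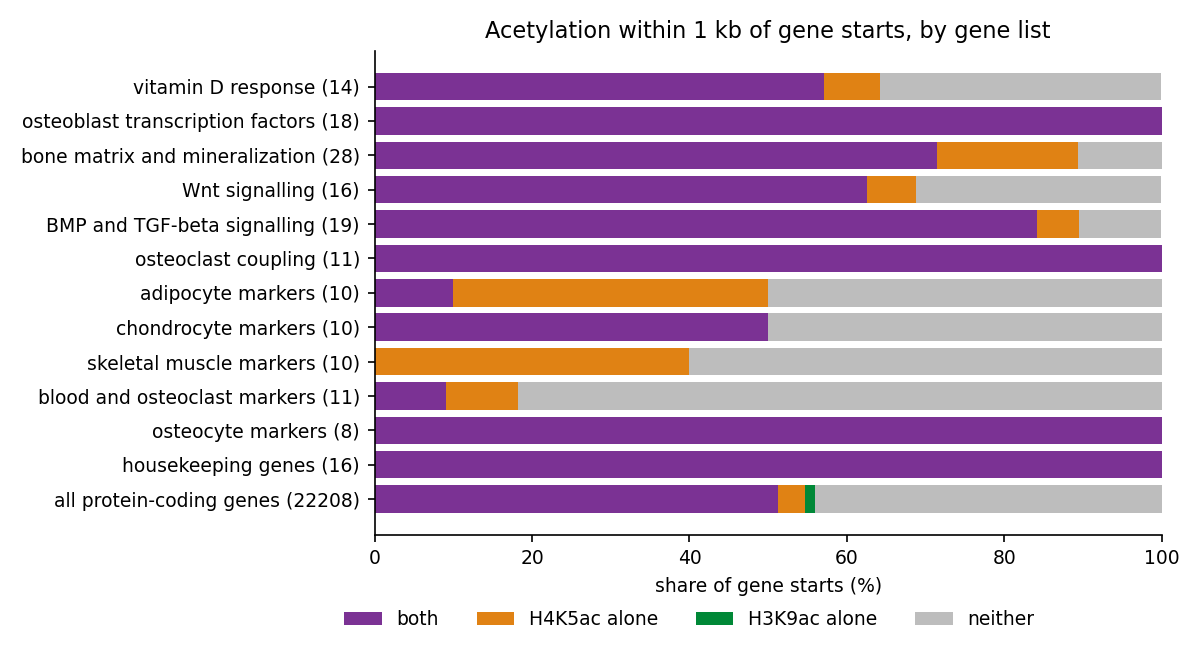
Share in percent of the genes of each list, and of all 22208 protein-coding genes, with both marks, H4K5ac alone, H3K9ac alone or neither within 1 kb of a start; the number of genes is in parentheses. The osteoblast factor, osteoclast coupling, osteocyte and housekeeping genes so listed had both marks at a start, although Tnfsf11, Dmp1, Mepe, Phex, Sost and Fgf23, held in other lists, did not, while 40.0% of adipocyte and of skeletal muscle genes had H4K5ac alone.

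Within single genes the reach of the marks differed. The figures that follow cover the gene with 10 kb to either side, for the genes with the most shared length or the most H4K5ac alone among the 60 genes of the vitamin D, osteoblast factor and matrix lists. Runx2 led both rankings, with 85.2 kb in both marks and 229 kb in H4K5ac alone out of 339 kb, and held 13 C/EBPβ, 7 RXR and 7 RUNX2 sites. Most of the H4K5ac over the type I collagen genes also carried H3K9ac: 90.5% at Col1a1, where 33.3 of 36.8 kb had both marks, and 84.5% at Col1a2, where 44.0 of 56.7 kb did. Sparc, which encodes osteonectin, was alike at 77.5% (35.3 of 45.6 kb). The other pattern, a low share, was seen among genes picked for the most H4K5ac alone. That choice favours long genes with low shares. H3K9ac accompanied 14.9% of the H4K5ac at Col5a2 (113 kb of H4K5ac alone), 14.9% at Zfp521 (154 kb), 29.5% at Col5a1 (70.2 kb), 16.2% at Tead1 (86.8 kb) and 9.73% at Ank (88.4 kb), the pyrophosphate transporter gene. Between these lay Rxra (49.7 kb shared, 52.3%), Fn1 (41.9 kb, 51.7%), Alpl (40.9 kb, 54.8%), Lrp5 (31.6 kb, 47.6%) and Nfatc1 (30.4 kb, 45.5%). Alpl, which encodes the tissue-nonspecific alkaline phosphatase, had both marks at a start but no H3K4me3 there and no H3K36me3 over its body. Vdr itself had 11.8 kb in both marks and 40.8 kb in H4K5ac alone, with 1 VDR site, and Dcn, which encodes decorin, 16.6 and 38.3 kb. H3K9ac accompanied 22.4% of the H4K5ac at Vdr, out of 76.2 kb, and 30.3% at Dcn, out of 58.5 kb. Lrp5 and Nfatc1 spanned 122 and 127 kb. How the share goes with gene length was not tested.

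Around gene starts and factor sites, H3K9ac dropped off within a shorter distance than H4K5ac. The H4K5ac list is longer and its regions wider, with a median of 4723 against 3007 bp. No profile was made at equal list length, so how much of the difference goes with width was not tested. At the centre of VDR sites, H4K5ac lay over 94.0% and H3K9ac over 79.8%. At 2 kb to the left the shares were 72.8% and 40.2%, and at 5 kb to the right 57.4% and 19.7%. RXR and C/EBPβ sites showed the same order, with H3K9ac over 77.8% and 51.3% at the centre and over 21.4% and 14.4% at 5 kb to the right. At RUNX2 sites it was 70.7% at the centre and 35.2% at 2 kb to the left. At gene starts both marks were nearly equal at the centre, 50.7% for H4K5ac and 48.9% for H3K9ac, and 1 kb upstream they were 46.5% and 36.2%. Downstream they stayed closer, at 49.0% and 47.0% at 1 kb and 32.9% and 28.5% at 2 kb. At 5 kb downstream they were 16.8% and 7.93%.

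**Figure D4:**
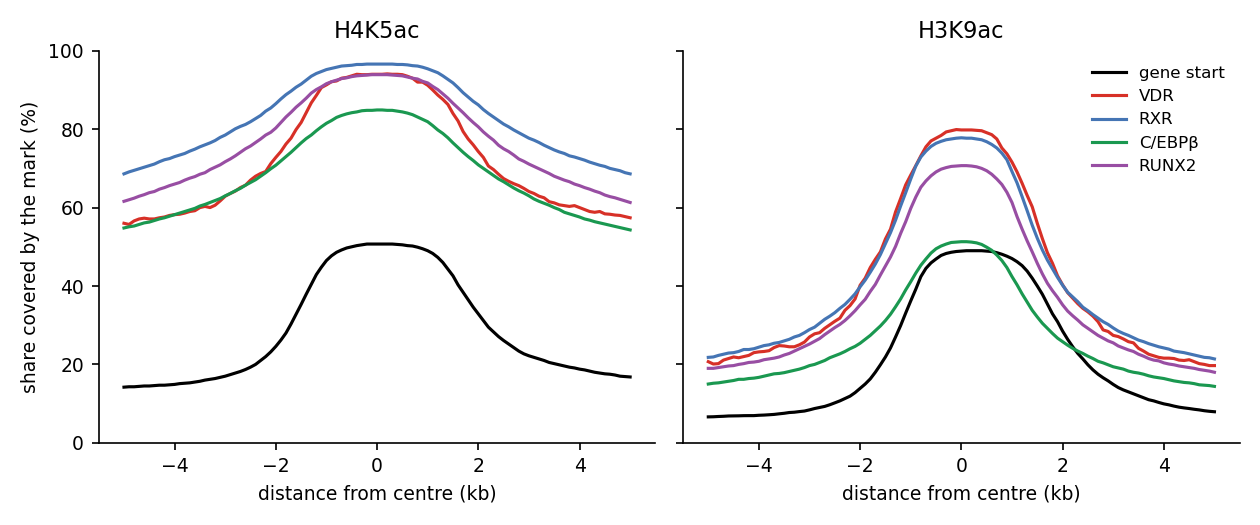
Share in percent of gene starts (n = 22207) and of calcitriol sites of each factor covered by H4K5ac (left) and H3K9ac (right), by distance in kb from the start or the site's centre; negative values lie upstream of starts and to the left of sites. H4K5ac still covers 54.3% to 68.6% of sites at 5 kb to the right, and H3K9ac 14.4% to 21.4%, with the lists at their full and unequal lengths.

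Most factor sites lay where both marks did. Of 871 VDR sites under calcitriol, 689 (79.1%, 76.3 to 81.8) were in both marks, 130 in H4K5ac alone, 6 in H3K9ac alone and 46 in neither. Of 8126 RXR sites 6313 (77.7%, 76.8 to 78.6) were in both, of 7919 RUNX2 sites 5584 (70.5%, 69.5 to 71.5), and of 16557 C/EBPβ sites 8457 (51.1%, 50.3 to 51.8). C/EBPβ thus had the lowest share in both marks and the largest in H4K5ac alone (33.8%, 33.1 to 34.5) and in neither (14.9%, 14.4 to 15.5). Sites over 1 kb from any start gave 70.1% for VDR, 73.8% for RXR, 65.5% for RUNX2 and 46.3% for C/EBPβ, so C/EBPβ was lowest there too. With the H4K5ac list reduced to equal length by score, these shares over all sites were 36.6%, 44.5%, 36.4% and 24.4%, and by score per bp 52.7%, 42.1%, 37.3% and 26.5%. C/EBPβ was lowest in each, while the order of VDR and RXR was not stable.

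Per length the sites were concentrated in the shared parts. VDR sites numbered 8.08 per Mb in both marks and 0.657 per Mb in H4K5ac alone, a ratio of 12.3. The ratio was 9.52 for RXR, 6.99 for RUNX2 and 3.51 for C/EBPβ. In distal sequence alone it was 12.6, 11.4, 8.81 and 4.23. The 130 VDR sites in H4K5ac alone were not mainly edges of H3K9ac: 72 lay in H4K5ac regions with no H3K9ac, a median of 31.0 kb from the nearest, and 5 lay within 1 kb of H3K9ac. For every factor, H4K5ac regions without H3K9ac held more sites per Mb than the H4K5ac-alone parts of mixed regions: 0.906 against 0.489 for VDR, 11.6 against 5.24 for RXR, 40.0 against 20.4 for C/EBPβ and 15.3 against 5.41 for RUNX2. The mixed regions entered here without their shared parts, which held more sites per Mb than either. Whole regions were therefore not compared. H3K9ac alone held 5 RXR, 15 RUNX2 and 36 C/EBPβ sites in its 3.44 Mb, or 1.45, 4.36 and 10.5 per Mb. For VDR it held 1.74 per Mb, above the 0.657 of H4K5ac alone but from 6 sites only. Of its 6 VDR sites, 4 lay between 3016088 and 3029734 on chromosome 9, in and beside the predicted genes named above, and the others at the starts of Pabpc4 and Otud3; all 6 had H3K4me3, 4 were in the vehicle list and none had RXR.

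Pooled over the factors, sites with more of them lay more often in both marks, but the share depended on which factors they were. Overlapping sites were merged and those over 1 kb from a start were counted. Both marks were at 44.4% (43.6 to 45.2) of 15551 sites with 1 factor, at 67.5% (66.0 to 69.1) of 3583 with 2, at 79.4% (77.5 to 81.3) of 1722 with 3 and at 89.1% (82.9 to 93.6) of 147 with all 4. Neither mark was at 17.4%, 4.88%, 1.86% and 0.680%. Sites of C/EBPβ alone, 10799 of the 15551 with 1 factor, had both marks in 37.7% (36.8 to 38.6), of RUNX2 alone in 52.6% (50.6 to 54.5), and of RXR alone in 69.0% (1488 of 2156). The 92 sites of VDR alone were spread over both marks (35.9%), H4K5ac alone (31.5%) and neither (32.6%). Against RXR alone, the share was no higher for RXR with C/EBPβ (68.2%, 65.4 to 70.9), VDR with RXR (66.2%, 58.1 to 73.7) or all 3 of these (67.4%, 56.7 to 77.0). C/EBPβ with RUNX2 (51.5%, 48.1 to 54.8) was likewise no higher than RUNX2 alone. RXR with RUNX2 had both marks in 77.6% (75.3 to 79.7), and with C/EBPβ besides in 79.6% (77.5 to 81.6). With RXR and RUNX2 beside VDR, 62 of 68 (91.2%) were in both marks.

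VDR sites of different kinds also differed in their partners. Over 1 kb from a start, RXR overlapped 88.9% (85.4 to 91.8) of VDR sites in both marks, 74.4% (65.8 to 81.8) in H4K5ac alone and 20.9% (9 of 43) in neither. RUNX2 overlapped 49.7% (44.7 to 54.8), 16.8% (10.7 to 24.5) and 11.6% (3.89 to 25.1). These partner shares are another view of the counts by factor. VDR sites that were also in the vehicle list were 20 of 396 in both marks, 9 of 125 in H4K5ac alone and 21 of 43 (48.8%, 33.3 to 64.5) in neither. The undifferentiated VDR list held 94.4%, 81.6% and 37.2% of them. Sites with neither mark were thus more often in the vehicle list and less often with RXR than sites in both marks or in H4K5ac alone; the 6 in H3K9ac alone are described above. Vehicle lists were set on acetylation measured under calcitriol, since acetylation lists of vehicle-treated cells were not analysed here; of the 274 vehicle VDR sites, 224 (81.8%) lay in both marks and 209 at gene starts.

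The factor's own element was rarer at sites in both marks than at sites in H4K5ac alone or in neither. The RUNX element occurred in 51.9% (50.6 to 53.2) of RUNX2 sites in both marks, 63.1% (60.9 to 65.3) in H4K5ac alone and 76.3% (72.2 to 80.1) in neither. Windows of a site's width 2 kb to either side held it in 8.98% and windows of that width at all gene starts in 8.21%. The C/EBP element (TTAC or TTGC, then any 2 bases, then AA, on either strand) occurred in 50.7% (49.6 to 51.7), 59.8% (58.5 to 61.1) and 69.1% (67.2 to 70.9) of C/EBPβ sites, beside 16.9% in the flanks and 9.46% at gene starts. An exact DR3 was in 25 of 689 VDR sites in both marks (3.63%, 2.36 to 5.31), 18 of 130 in H4K5ac alone (13.8%, 8.42 to 21.0) and 6 of 46 in neither (4.94 to 26.3%), beside 0.115% in the flanks and 0.0270% at gene starts. The few sites in H3K9ac alone gave 3 of 15 for RUNX (4.33 to 48.1%), 17 of 36 for C/EBP (47.2%, 30.4 to 64.5) and 0 of 6 for DR3. The order of the other kinds held in distal sequence for RUNX (52.0%, 60.7% and 74.9%) and C/EBP (49.6%, 59.0% and 69.1%). Distal VDR sites gave 5.02% (2.62 to 8.61), 17.4% (9.32 to 28.4) and 12.9% (3.63 to 29.8) for DR3, where the interval for neither overlapped both others. A match describes the letters of the window and does not show which bases were bound.

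**Figure D5:**
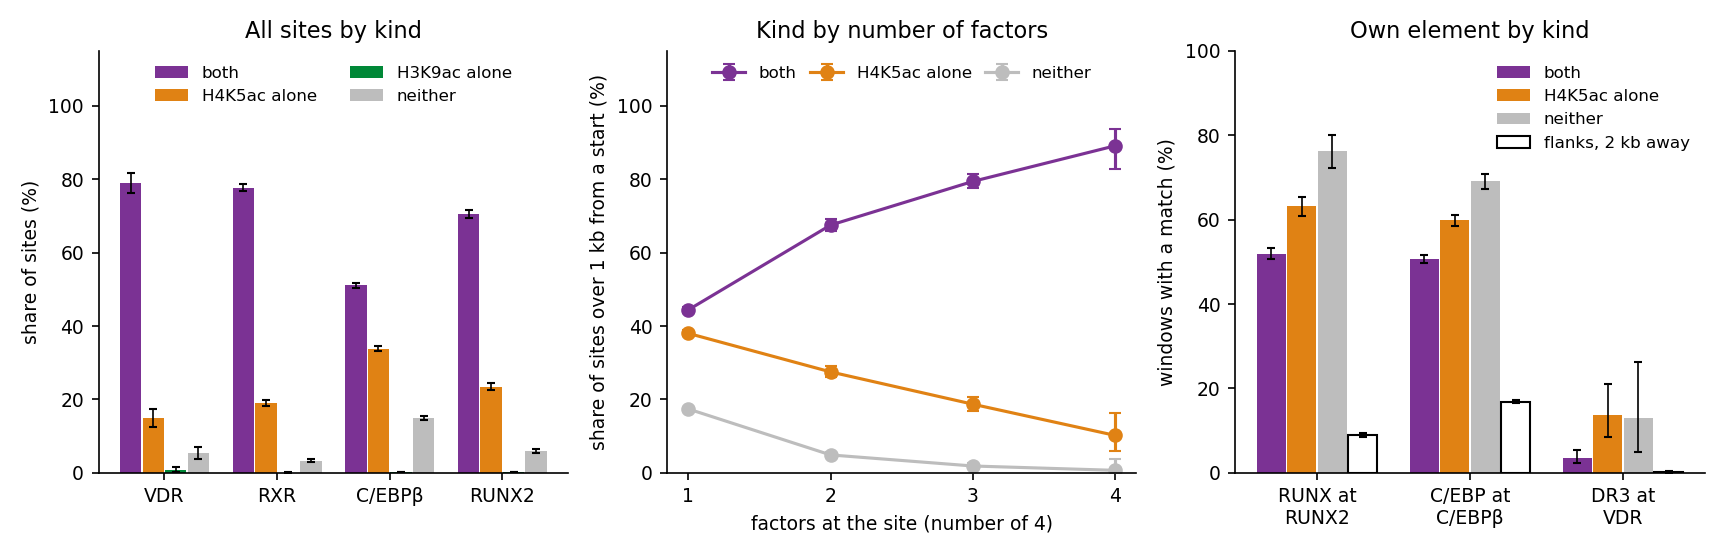
Left, share in percent of the calcitriol sites of each factor by kind; middle, share by kind of sites over 1 kb from a start, by the number of factors at the site; right, share of windows of a site's width with the factor's own element, by kind and in flanks 2 kb away. Error bars are exact 95% intervals for counting error; pooled over factors, the share in both marks goes from 44.4% with 1 factor to 89.1% with 4, and the RUNX and C/EBP elements are less frequent in both marks than in H4K5ac alone or in neither.

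In undifferentiated cells under calcitriol the marks had the same nesting with less overlap: both covered 65.6 Mb, H4K5ac alone 274 Mb and H3K9ac alone 1.44 Mb, so that H3K9ac accompanied 19.3% of the H4K5ac length against 30.1% at day 15. Of the shared length at day 15, 69.5% was shared in undifferentiated cells too and 28.5% was H4K5ac alone there. Of the undifferentiated H4K5ac-alone length, 8.88% was shared at day 15 and 33.6% carried neither mark. Both marks were at 49.8% of gene starts in undifferentiated cells H4K5ac alone at 5.75% and H3K9ac alone at 0.774%; 313 genes went from H4K5ac alone to both marks and 32 the other way. The 313 were 24.5% of all genes with H4K5ac alone in undifferentiated cells. Among them were the listed genes Enpp3, Col11a1, Nog, Ccl7 and Sema4d, named after their values were seen and not set apart from that share. The undifferentiated H3K9ac region nearest to the start was 399 kb away at Col11a1, which encodes a fibrillar collagen chain, 114 kb at Nog, which encodes the BMP antagonist noggin, and 9.02 kb at the chemokine gene Ccl7. Differences in list length, preparation and state cannot be told apart here.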

How the data were processed

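ChIP-seq region lists of MC3T3-E1 cells were used as deposited by the authors, each a table of position, name, score and strand on mm9. Bowtie, HOMER and mm9 are named per the submitters' processing notes; their versions and settings: not given in the sources used here. The score of each histone region is the authors' deposited value, with no stated meaning, and the deposited factor sites all have score 0. Each region's name says that at least 2 peaks were merged, and per the labels' design text biological replicates were examined separately, so the merging may favour strong peaks and no spread between replicates can be recovered. A broader list covers more by length alone, which is why the marks were also compared at equal length.

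Bases on chromosomes 1 to 19 and X were assigned to kinds, and regions on Y and the mitochondrial genome were left out. GENCODE gene models on NCBIM37, the assembly of mm9, gave 22208 protein-coding genes after models with the same symbol and chromosome were joined. Gene starts were 1 kb to either side of any transcript start. Sites were placed by their centre. Elements were searched on both strands with 0 mismatches across the width of a site. CpG ratios were taken within 500 bp to either side. Python 3.11.15, numpy 2.4.6, scipy 1.17.1 and matplotlib 3.10.9 were used, and the assignment of bases was tested on simulated regions with known overlap.

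Genes were named as the 12 with the most shared length and the 12 with the most H4K5ac alone among 60 vitamin D, osteoblast factor and matrix genes, those at the 5 longest stretches of each kind, and up to 4 members of every other list. Other genes singled out by the kind at their start were named after their values were seen. 1 gene that this rule names is not reported here. Of 172 listed genes, Ocstamp was not matched. The regions compared and the gene lists were chosen with earlier results of these data known. Alternatives were a cut on score, equal list length, closed gaps, other start windows and gene sets, and other rules for placing sites.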

Additional observations from a re-analysis of the deposited data

Results flagged for a closer look

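Outside the chromosomes compared, the day 15 H3K9ac list held 4 regions on the Y chromosome and the H4K5ac list 1, and each held 2 on the mitochondrial genome. These regions entered no comparison, and their origin was not tested.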

How the results depend on the processing

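Of 95 values under alternatives to 13 results, 53 moved by less than the counting interval or by less than 1.5 times, and 42 moved. With the 2452 H4K5ac regions of highest score, both marks held 31.0 Mb, H4K5ac alone 57.8 Mb and H3K9ac alone 57.8 Mb; gene starts had both marks in 6.51%, H4K5ac alone in 0.540% and H3K9ac alone in 46.1%; the start share of the shared length was 12.2% (34.5% by score per bp); and both marks held 36.6% of VDR, 44.5% of RXR, 24.4% of C/EBPβ and 36.4% of RUNX2 sites. With the 10993 regions of highest score per bp, an alternative chosen after seeing the data, lengths were 47.4, 41.4 and 41.4 Mb, gene starts 35.5%, 0.662% and 17.2%, and sites 52.7%, 42.1%, 26.5% and 37.3%. Without the lowest 25% of regions by score, gene starts had both marks in 47.4% and H3K9ac alone in 2.75%, and sites in both marks were 75.0%, 70.4%, 43.9% and 62.2%. Sites over 1 kb from a start gave 70.1%, 73.8%, 46.3% and 65.5%. With start windows of 500 bp, the start shares of length in both marks, H4K5ac alone and H3K9ac alone were 16.6%, 1.28% and 15.8%, and with 2500 bp 45.1%, 7.85% and 67.7%, as wider windows hold more length; 2500 bp also gave both marks at 52.5% and H4K5ac alone at 3.76% of genes. All annotated genes gave 36.1%, 4.78% and 1.00%. Apart from the windows, equal lengths and the choice of genes or sites, which act by construction, the cause was not tested. Keeping only regions merged from at least 2 peaks removed none. No paired analysis was possible because each mark had 1 list, and for the same reason no replicate could be left out. Depth is unknown, so absence from a list may mean a signal under the authors' threshold.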

Other observations

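Factor sites without H3K9ac mostly still had the enhancer mark H3K4me1. It lay at 90.8% of VDR, 99.4% of RXR, 98.1% of C/EBPβ and 99.6% of RUNX2 sites in H4K5ac alone. At sites with neither acetylation it lay at 26.1% of VDR, 77.3% of RXR, 60.4% of C/EBPβ and 82.6% of RUNX2 sites. For comparison, H3K4me1 lay over 79.9% of the whole H4K5ac-alone length and over 3.99% of the length with neither mark. Much of the share at sites in H4K5ac alone is thus shared by that kind as a whole. H3K4me3 was found at 41.7% of VDR sites in both marks and at 1.54% of those in H4K5ac alone. All of these lists came from day 15 cells under calcitriol.

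RXR sites under vehicle were placed much as under calcitriol, with 3899 of 4815 (81.0%) in both marks and 782 in H4K5ac alone. VDR differed by place: 76.3% of its vehicle sites were at gene starts, against 35.1% under calcitriol. Over 1 kb from a start, 22 of 65 vehicle VDR sites (33.8%) were in both marks and 31 (47.7%) in neither. Each condition had 1 list, so these differences were not tested.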
